A study of Mus musculus with 8 samples.

Results

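The 7 genes described here, Cd36, Msr1, Olr1, Marco, Cd68, Stab1 and Scarb2, encode receptors that bind modified lipoprotein, or close relatives of such receptors. They were chosen by name from a table of 24391 gene symbols, and all 7 were in it. The lesions came from the brachiocephalic artery of C57BL/6 mice that carried a smooth muscle lineage tracing line described as wild type and had eaten a Western diet for 18 weeks. In one group, 4 animals were injected with an antibody against interleukin-1β (IL-1β), and in the other, 4 animals were injected with control immunoglobulin G (IgG). The labels describe the tissue as a mix that holds smooth muscle, epithelial and macrophage cells, and they give neither the age of the animals, nor the driver of the lineage tracing line, nor any other allele. Apoe, whose product clears plasma lipoproteins, had 15.1 ± 2.03 CPM (a gene's count scaled to a common library size) in antibody-treated lesions and 25.0 ± 5.32 CPM in IgG lesions (SD, n = 4 each).

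Scavenger receptors take up low density lipoprotein that has been oxidised or otherwise altered in the vessel wall. Unlike the native LDL receptor, they are not shut off when the cell fills with cholesterol, and their activity is a textbook route from macrophage to foam cell. IL-1β is an inflammatory cytokine made mainly by activated macrophages. What neutralising it changes in these lesions is the question that the antibody and IgG groups address.

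The samples were sequenced to between 20137336 and 27100415 counts assigned to genes in antibody lesions and between 21902802 and 29453014 in IgG lesions. Of all alignments, 27.9% to 34.1% were assigned in antibody lesions and 24.4% to 34.9% in IgG lesions. The lowest share was in IgG animal 2, where 48.0% of alignments mapped to several places and Rn45s took 7.12% of the counts. Macrophage genes were present in every lesion: the 14 markers listed for that cell type, among them Adgre1, Csf1r and Lyz2, summed to between 5329 and 7883 CPM in antibody lesions and between 4572 and 11917 CPM in IgG lesions. The 7 smooth muscle markers summed to between 1456 and 3946 CPM in antibody lesions and between 2232 and 2942 CPM in IgG lesions. Adipocyte markers were present as well. The 7 brown adipocyte markers summed to between 1448 and 4973 CPM in antibody lesions, highest in antibody animal 3, and between 1613 and 2170 CPM in IgG lesions. IgG animal 2 stood apart in the mean log2 CPM of 7 cardiac muscle markers, at 4.67, against 0.39 to 1.63 in the antibody lesions and 0.57 to 1.33 in the other IgG lesions.

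Cd36 was the most abundant of the receptors, Olr1 was low and Marco was close to undetected. Levels of different genes are given here per exon length, as CPM divided by the exon length in kilobases (RPKM). Cd36 averaged 347 ± 81.6 RPKM in antibody lesions and 280 ± 27.1 RPKM in IgG lesions (SD, n = 4 each), above 99.0% of the 15980 genes kept by the filter on low counts. Cd68 followed at 157 ± 26.7 RPKM in antibody and 190 ± 80.9 RPKM in IgG lesions. Scarb2 had 94.4 ± 8.38 and Stab1 42.7 ± 3.86 RPKM in antibody lesions, against 105 ± 17.4 and 51.9 ± 5.84 RPKM in IgG lesions. Msr1 had 32.1 ± 7.45 RPKM in antibody and 36.2 ± 15.9 RPKM in IgG lesions. Olr1 had 1.21 ± 0.256 RPKM in antibody and 1.07 ± 0.366 RPKM in IgG lesions, and Marco had 0.0878 ± 0.0849 RPKM in antibody and 0.0800 ± 0.0734 RPKM in IgG lesions.

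This order was the same in all 8 lesions except for 1 pair of neighbours. Stab1 lay above Msr1 in 7 of 8 lesions, with a ratio of RPKM between 0.843 and 2.20, and the exception was IgG animal 3. Of the other neighbours, Cd36 and Cd68 had the lowest ratio in a single lesion, at 1.08, and were at 3.28 where they were farthest apart. Cd68 and Scarb2 had ratios of 1.15 to 2.38. Between Msr1 and Olr1 there was a wide step, with ratios of 18.5 to 39.8.

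**Figure D1:**
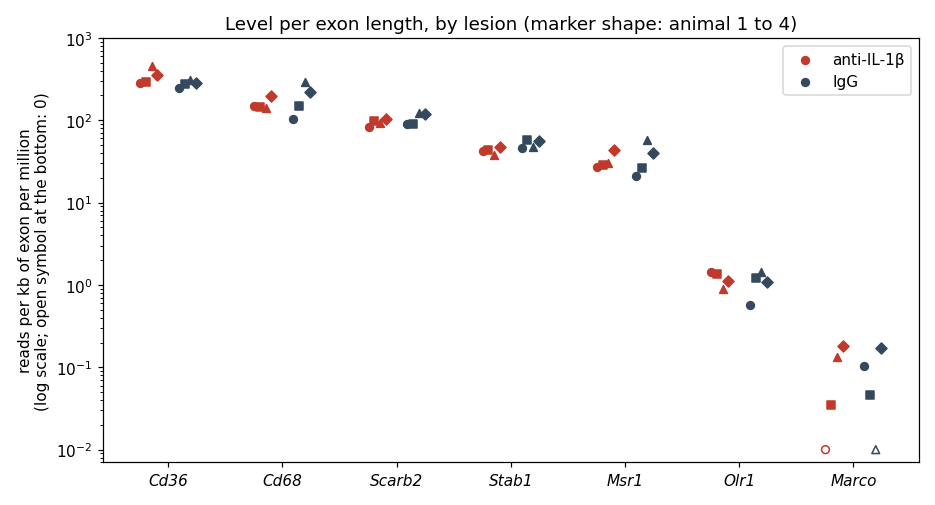
Level of each receptor in RPKM on a log scale, with 1 point per lesion and marker shapes for animals 1 to 4 of each group. Cd36 sits highest at 246 to 460 RPKM, Olr1 lies between 0.566 and 1.45 RPKM, and Marco was at 0 in 1 lesion of each group (open symbols).

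Between antibody and IgG lesions, none of the 7 receptors passed the test for a changed level. Of the 6 with enough counts to test, Msr1, Cd68, Scarb2 and Stab1 had fold changes below 0 on the log2 scale, and Cd36 and Olr1 had fold changes above 0. The largest of either sign were 0.31 ± 0.19 (SE) for Cd36 and -0.28 ± 0.13 for Stab1. In bulk tissue, fewer cells of a type and less RNA per cell cannot be told apart. By the quasi-likelihood test of edgeR, adjusted over all genes by Benjamini and Hochberg's method, 0 of 6 passed an adjusted p of 0.05, where 0% of the 15980 genes did, and the adjusted p was 0.9997 for each of the 6. At an unadjusted p under 0.05 there were 0 of 6 receptors, beside 3.19% of all genes (2.06% lower and 1.13% higher in antibody lesions). Of the genes at an unadjusted p under 0.05, 35.4% were higher. The fit with total count scaling had its own set of 537 such genes, of which 53.1% were higher. DESeq2 called 0 of 6 after adjustment, beside 0.0417% of all genes, and had 1 (Stab1) at an unadjusted p under 0.05, beside 2.95%. Limma-voom called 0 of 6 after adjustment, beside 0.0125%, and had 2 (Stab1 and Scarb2) at an unadjusted p under 0.05, beside 17.3% of all genes. The groups overlapped for all 7 receptors, and they did not overlap for 1.96% of all genes. Fold changes below 0 were found for 4 of 6 receptors, with a median of -0.16, and for 52.3% of all genes, with a median of -0.01.

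Cd36 encodes a class B receptor for oxidised LDL and long-chain fatty acids, used by macrophages, platelets, adipocytes and capillary endothelium. The gene lies on the minus strand of chromosome 5 of the mm9 build, from 17287508 to 17394777, with 17 exon blocks that total 3927 bases. It had 1117, 1136, 1805 and 1393 CPM in antibody animals 1 to 4, against 967, 1084, 1224 and 1124 CPM in IgG animals 1 to 4. Antibody animals 3 and 4 lay above every IgG lesion, and antibody animals 1 and 2 lay within the IgG range. The fold was 1.24, with a log2 fold change of 0.31 ± 0.19 (SE, 95% interval -0.12 to 0.73, edgeR unadjusted p = 0.135). Without antibody animal 3, the lesion with the highest Cd36, the log2 fold change was 0.14 ± 0.16. That lesion also had the highest sum of brown adipocyte markers, with Ucp1, the uncoupling protein of brown fat, at 3060 CPM against 712 to 960 CPM in the other antibody lesions and 825 to 1275 CPM in IgG lesions. All 7 brown and 6 of 9 white adipocyte markers had fold changes above 0, with medians of 0.38 and 0.26, and 0 of them passed the adjusted threshold. Over all 15980 genes kept the median was -0.01, and 7624 had fold changes above 0. The brown adipocyte score, the mean log2 CPM of the 7 markers, was 7.14, 6.77, 8.43 and 7.20 in antibody animals 1 to 4. In IgG animals 1 to 4 that score was 7.29, 7.34, 6.94 and 6.93. The 9 white adipocyte markers summed to between 2348 and 4834 CPM in antibody lesions and between 1999 and 3294 CPM in IgG lesions. With the brown adipocyte score as a covariate, the log2 fold change of Cd36 was 0.19 ± 0.16 (edgeR unadjusted p = 0.246). The part of adipocytes in the Cd36 level was not tested.

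Msr1 encodes the class A macrophage scavenger receptor, a trimer with a collagen-like stalk that binds acetylated and oxidised LDL. It lies on chromosome 8 of mm9, from 40667054 to 40728032 on the minus strand. Msr1 had 107, 113, 121 and 172 CPM in antibody animals 1 to 4, against 84.5, 106, 227 and 161 CPM in IgG animals 1 to 4. The highest and the lowest value were both in IgG lesions, and all 4 antibody values fell between them. The log2 fold change was -0.17 ± 0.29 (SE, 95% interval -0.83 to 0.49, edgeR unadjusted p = 0.576). Without IgG animal 3, the lesion with the highest Msr1, it was 0.13 ± 0.24.

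Cd68 encodes a heavily glycosylated protein of late endosomes and lysosomes in macrophages, also counted among the scavenger receptors, and is the usual histological marker of lesion macrophages. It lies on chromosome 11 of mm9, from 69477715 to 69479672 on the minus strand. Its values were 185, 179, 175 and 245 CPM in antibody animals 1 to 4, against 130, 186, 361 and 271 CPM in IgG animals 1 to 4. As for Msr1, all antibody values lay inside the IgG range. The SD was 33.2 CPM in antibody lesions and 101 CPM in IgG lesions. The log2 fold change was -0.27 ± 0.28 (SE, 95% interval -0.91 to 0.36, edgeR unadjusted p = 0.357), and 0.00 ± 0.24 without IgG animal 3.

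Scarb2 encodes LIMP-2, a lysosomal membrane protein of the same class B family as CD36. It lies on chromosome 5 of mm9, from 92872899 to 92934634 on the minus strand. Scarb2 had 176, 205, 197 and 218 CPM in antibody animals 1 to 4, against 192, 188, 257 and 249 CPM in IgG animals 1 to 4. IgG animals 3 and 4 lay above every antibody lesion, and the other IgG lesions lay among the antibody values. The log2 fold change was -0.15 ± 0.14 (SE, 95% interval -0.47 to 0.16, edgeR unadjusted p = 0.306). It was -0.07 ± 0.14 without IgG animal 3, -0.09 ± 0.16 without IgG animal 4 and -0.10 ± 0.15 without antibody animal 1. It was the least variable receptor, with a highest lesion 1.46 times the lowest.

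Stab1 encodes stabilin-1, a large class H receptor of sinusoidal and lymphatic endothelium and of tissue macrophages that takes up modified LDL and other cargo. It lies on chromosome 14 of mm9, from 31952203 to 31981827 on the minus strand, and 108 of its 7995 exon bases overlap exons of Nt5dc2 on the other strand, where featureCounts at its default setting assigns reads to neither gene. Stab1 had 340, 344, 302 and 378 CPM in antibody animals 1 to 4, against 369, 466, 383 and 442 CPM in IgG animals 1 to 4. The groups overlapped through a single pair, since antibody animal 4 lay above IgG animal 1. The log2 fold change was -0.28 ± 0.13 (SE, 95% interval -0.58 to 0.01, edgeR unadjusted p = 0.0573), the smallest p of the 6. Leaving out 1 animal at a time gave fold changes between -0.34 and -0.22. Stab1 was lowest in antibody animal 3 and highest in IgG animal 2, and without both of them it was -0.15 ± 0.13 (edgeR unadjusted p = 0.291). Beside these values, the 5 markers of lymphatic and sinusoidal endothelium with enough counts (Lyve1, Prox1, Pdpn, Stab2 and Flt4) had fold changes below 0, with a median of -0.24, and 0 passed. Of all genes kept, 52.3% had fold changes below 0, with a median of -0.01. The mean log2 CPM of the 5 markers was 3.71, 3.78, 3.53 and 3.73 in antibody animals 1 to 4. It was 4.10, 3.81, 3.85 and 4.06 in IgG animals 1 to 4, lowest of these in IgG animal 2, where Stab1 was highest. The 6 listed genes summed to between 82.4 and 108 CPM in antibody lesions and between 106 and 145 CPM in IgG lesions, with Ccl21a at 0 in every lesion. The part of these cells in the Stab1 level was not tested.

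Olr1 encodes LOX-1, a lectin-like class E receptor for oxidised LDL known best from endothelium, and it was rare in these lesions. It lies on chromosome 6 of mm9, from 129435266 to 129457183 on the minus strand. Olr1 had 5.17, 4.87, 3.15 and 4.01 CPM in antibody animals 1 to 4, against 2.02, 4.33, 5.08 and 3.88 CPM in IgG animals 1 to 4. These values rest on 72 to 139 counts per antibody lesion and 59 to 141 counts per IgG lesion. Antibody animal 1 had the highest value and IgG animal 1 the lowest. The log2 fold change was 0.17 ± 0.29 (SE, 95% interval -0.48 to 0.82, edgeR unadjusted p = 0.574), and -0.04 ± 0.23 without IgG animal 1.

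Marco encodes a class A receptor with a collagen-like stalk, known from marginal zone and alveolar macrophages. It lies on chromosome 1 of mm9, from 122371115 to 122401661 on the minus strand. Marco had 0, 2, 6 and 9 counts in antibody animals 1 to 4 and 6, 2, 0 and 10 counts in IgG animals 1 to 4. The sums were 17 and 18 counts, so Marco did not pass the filter on low counts and a difference was not detectable at this depth. A library with 0 counts allows up to 3 at this depth, by counting error only.

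**Figure D2:**
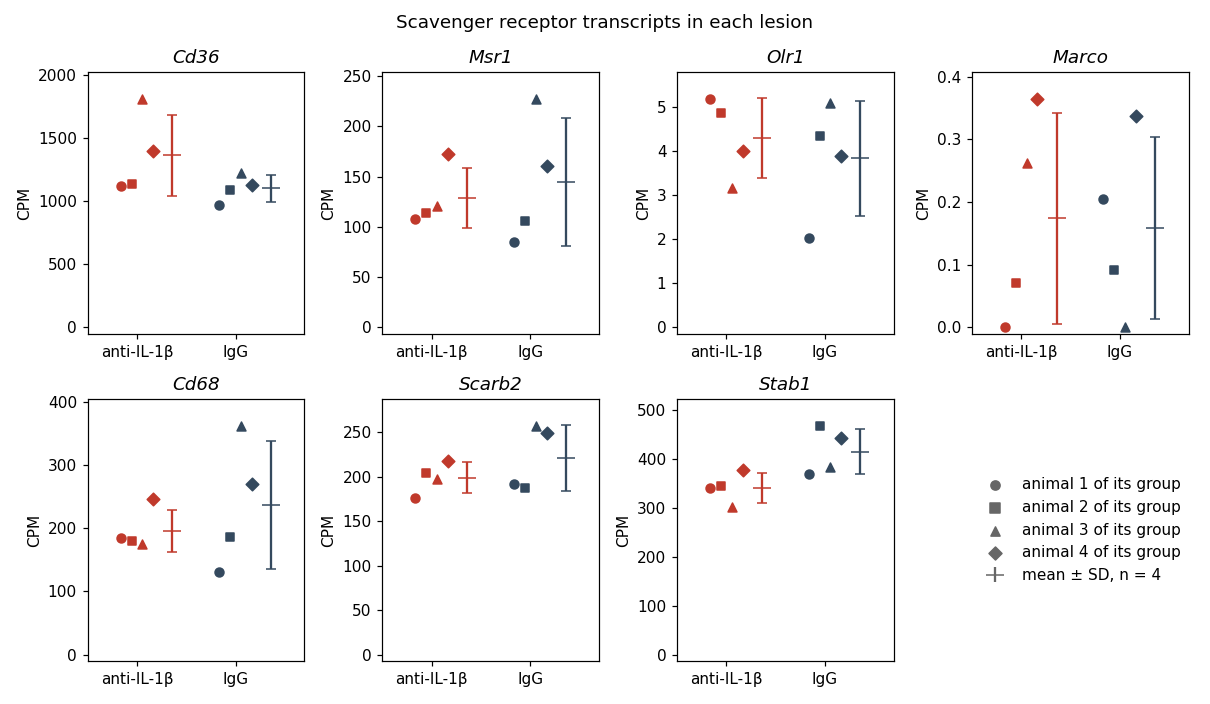
CPM of each receptor in each lesion (y axis, from 0), with antibody lesions left of IgG lesions, 1 marker shape per animal number and the mean ± SD of 4 beside them. Cd68 and Msr1 spread more widely in the IgG group, Cd36 is highest in antibody animal 3 at 1805 CPM, and the groups overlap in every panel.

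**Figure D3:**
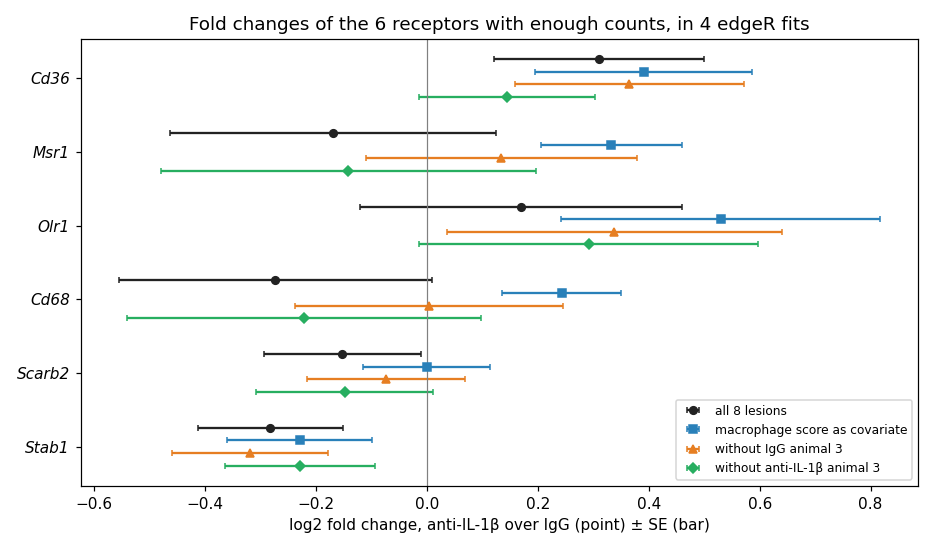
Log2 fold change of antibody over IgG lesions (points) with its SE (bars) for the 6 receptors tested, in edgeR fits on all 8 lesions, with the macrophage score as a covariate, without IgG animal 3 and without antibody animal 3. Msr1 and Cd68 have points on both sides of 0, whereas Stab1 stays between -0.32 and -0.23 and Cd36 between 0.14 and 0.39.

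Cd68 and Msr1 correlated with the macrophage markers across the 8 lesions, and for Cd36 no such relation was detected. A macrophage score was formed in each lesion as the mean log2 CPM of the 14 macrophage markers, which include none of the receptors. It was 7.09, 7.11, 7.05 and 7.50 in antibody animals 1 to 4, against 6.91, 7.42, 7.96 and 7.74 in IgG animals 1 to 4. All 14 markers had fold changes below 0, with a median of -0.36, where 52.3% of all genes kept did, with a median of -0.01. Of the 14 markers, 0 passed the adjusted threshold, with 1 (Csf1r) at an edgeR unadjusted p under 0.05, beside 3.19% of all genes. The receptors were related to this score and to scores of white adipocyte, vascular endothelium and brown adipocyte markers, 24 relations in all, with two-sided exact permutation tests over the orders of 8 lesions. The brown adipocyte score was added after its values had been seen.

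For Cd68, Pearson's r with the macrophage score was 0.95 (exact permutation p = 4.96e-05, adjusted p = 0.00119) and Spearman's rho 0.98 (exact permutation p = 3.97e-04, adjusted p = 0.00952). Leaving out the 2 lesions farthest from the median score, IgG animals 3 and 4, gave r = 0.85, and deviations from the group means gave r = 0.98. For Msr1, r was 0.89 (exact permutation p = 0.00283, adjusted p = 0.0339) and rho 0.76 (exact permutation p = 0.0368, adjusted p = 0.367), with r = 0.72 without the same lesions and 0.96 for deviations from the group means. For Scarb2, r was 0.85 (exact permutation p = 0.00742, adjusted p = 0.0593) and rho 0.74 (exact permutation p = 0.0458, adjusted p = 0.367), and r was 0.42 without those lesions, so that relation rests on them, while deviations from the group means over all 8 lesions gave r = 0.82. Stab1 had r = 0.58 (exact permutation p = 0.134, adjusted p = 0.593) and rho = 0.69 (exact permutation p = 0.0694, adjusted p = 0.416). Olr1 had r = 0.49 (exact permutation p = 0.220, adjusted p = 0.593) and rho = 0.40 (exact permutation p = 0.327, adjusted p = 0.652). Cd36 had r = 0.01 (exact permutation p = 0.976, adjusted p = 0.976) and rho = 0.29 (exact permutation p = 0.501, adjusted p = 0.668). Cd36 against the white adipocyte score had r = 0.52 (exact permutation p = 0.191, adjusted p = 0.593) and rho = 0.31 (exact permutation p = 0.462, adjusted p = 0.652). Cd36 against the brown adipocyte score had r = 0.73 (exact permutation p = 0.0857, adjusted p = 0.514) and rho = 0.00 (exact permutation p = 1, adjusted p = 1). That r was -0.33 without antibody animals 2 and 3, so it rests on those lesions. In the family of 24, only Cd68 and Msr1 with the macrophage score passed an adjusted p of 0.05, and Msr1 passed by r alone.

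**Figure D4:**
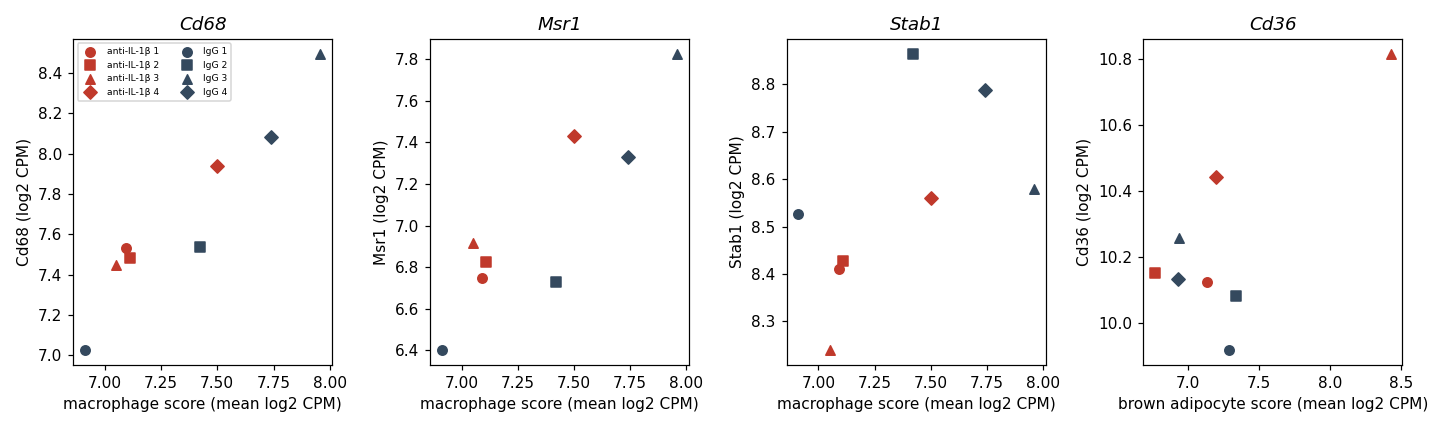
Log2 CPM of Cd68, Msr1 and Stab1 in each lesion against the macrophage score (mean log2 CPM of 14 markers), and of Cd36 against the brown adipocyte score (mean log2 CPM of 7 markers), with 1 point per lesion. Cd68 and Msr1 are lowest in IgG animal 1, which has the lowest macrophage score, and highest in IgG animal 3, which has the highest, and antibody animal 3 stands apart in the Cd36 panel at a brown adipocyte score of 8.43.

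Set against the macrophage score of its own lesion, all 6 receptors tested had a higher mean in the antibody group, with overlapping groups, and so did 93.3% of all genes kept. The score itself averaged 7.19 in antibody lesions and 7.51 in IgG lesions. Cd36 lay 3.20 ± 0.38 log2 units above the score in antibody lesions and 2.59 ± 0.32 above it in IgG lesions (SD, n = 4 each). Cd68 lay 0.41 ± 0.03 above it in antibody and 0.28 ± 0.20 in IgG lesions, and Msr1 was at -0.21 ± 0.13 in antibody and -0.44 ± 0.23 in IgG lesions. Olr1 was at -5.08 ± 0.39 in antibody and -5.62 ± 0.25 in IgG lesions. Stab1 was at 1.22 ± 0.12 in antibody and 1.18 ± 0.44 in IgG lesions, and Scarb2 at 0.45 ± 0.15 in antibody and 0.27 ± 0.28 in IgG lesions. With the macrophage score as a covariate in edgeR, the log2 fold change was 0.33 ± 0.13 for Msr1 (unadjusted p = 0.0292) and 0.24 ± 0.11 for Cd68 (unadjusted p = 0.0497), both opposite in sign to the fit without it. It was -0.00 ± 0.11 for Scarb2, -0.23 ± 0.13 for Stab1, 0.39 ± 0.20 for Cd36 and 0.53 ± 0.29 for Olr1. At an unadjusted p under 0.05 these were 2 of 6, beside 3.55% of all genes in that fit. After adjustment, 0 of 6 passed (adjusted p = 0.9998 for each of the 6), beside 0% of all genes.

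Among themselves, Msr1, Cd68 and Scarb2 varied together, and 15 pairs of receptors were examined. Msr1 and Cd68 had r = 0.97 (exact permutation p = 0.00119, adjusted p = 0.0179) and rho = 0.74 (exact permutation p = 0.0458, adjusted p = 0.229), with r = 0.95 without the 2 lesions farthest from the median of Msr1. Msr1 and Scarb2 had r = 0.87 (exact permutation p = 0.00494, adjusted p = 0.0312) and rho = 0.86 (exact permutation p = 0.0107, adjusted p = 0.161), with r = 0.80 without those lesions. Cd68 and Scarb2 had r = 0.85 (exact permutation p = 0.00625, adjusted p = 0.0312) and rho = 0.64 (exact permutation p = 0.0962, adjusted p = 0.289), with r = 0.48 without the 2 lesions farthest from the median of Cd68. The other 12 pairs did not pass by r, and 0 of 15 passed by rho. Over all 8 lesions, r of Cd36 was 0.33 with Msr1, 0.18 with Cd68, 0.05 with Olr1, 0.11 with Scarb2 and -0.55 with Stab1. Without the 2 lesions farthest from the median of Cd36, these were 0.85, 0.87, 0.88, 0.59 and -0.01, so they depend on those lesions. The values without them were not tested.

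The genes whose log2 CPM ran closest to each receptor over the 8 lesions were taken as the 3 with the highest Pearson's r among 13757 genes at 1 CPM or more. These are maxima of a search over many genes on 8 points and are given as a description. Cd68 ran with the lysosomal genes Gusb (r = 0.999), which encodes beta-glucuronidase, and Lgmn (r = 0.997), which encodes the protease legumain, and with Lilrb4a (r = 0.995), a myeloid inhibitory receptor gene. Msr1 ran with Mtmr10 (r = 0.995), Dnajb11 (r = 0.992), an endoplasmic reticulum chaperone gene, and Lgals3 (r = 0.991), which encodes the macrophage lectin galectin-3. Scarb2 ran with Ethe1 (r = 0.989), Nup153 (r = 0.985) and the ferritin heavy chain gene Fth1 (r = 0.980). Stab1 ran with Serpina3g (r = 0.991), Il21r (r = 0.968) and Runx3 (r = 0.962), the last 2 being an interleukin receptor and a transcription factor gene of lymphocytes. Cd36 ran with Crls1 (r = 0.987), which encodes the enzyme that makes cardiolipin in mitochondria, Rab3ip (r = 0.977) and the mitochondrial ribosome gene Mrps16 (r = 0.977). Olr1 ran with Efna4 (r = 0.963), Dkk2 (r = 0.942) and Cdkn1c (r = 0.942).

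The promoters of Cd68, Scarb2 and Cd36 are shown because these were the 3 most abundant receptors per exon length. Each is the 250 bases before 1 RefSeq start of the gene on GRCm38.p6, another build than that of the counts. They are written 5′ to 3′ in the direction of the gene, and any other start of the same gene was not examined. Capitals mark matches to GAGGAA, the core letters bound by PU.1, a macrophage transcription factor encoded by Spi1, or to TGANTCA, the AP-1 site, on either strand.
Cd68 promoter (chr11:69666171-69666420, strand -): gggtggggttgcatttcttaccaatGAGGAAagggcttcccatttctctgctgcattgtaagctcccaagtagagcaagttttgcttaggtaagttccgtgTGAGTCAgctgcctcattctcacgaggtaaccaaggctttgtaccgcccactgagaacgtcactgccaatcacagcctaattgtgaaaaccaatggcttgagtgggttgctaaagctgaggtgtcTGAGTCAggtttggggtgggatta
Scarb2 promoter (chr5:92505658-92505907, strand -): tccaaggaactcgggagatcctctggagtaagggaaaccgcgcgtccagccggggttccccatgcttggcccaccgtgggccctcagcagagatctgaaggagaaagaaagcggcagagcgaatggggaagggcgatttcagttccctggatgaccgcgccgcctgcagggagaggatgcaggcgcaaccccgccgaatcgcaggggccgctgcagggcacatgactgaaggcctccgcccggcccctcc
Cd36 promoter (chr5:17835897-17836146, strand -): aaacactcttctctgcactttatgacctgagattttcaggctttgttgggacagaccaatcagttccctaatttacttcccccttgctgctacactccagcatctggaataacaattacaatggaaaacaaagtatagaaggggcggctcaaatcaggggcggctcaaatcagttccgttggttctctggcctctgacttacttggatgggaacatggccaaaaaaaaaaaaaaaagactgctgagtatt
In the Cd68 window GAGGAA matched once, at -225 to -220 from the start, and TGANTCA matched at -149 to -143 and at -24 to -18. The Scarb2 and Cd36 windows held neither. Over 6 receptors with an entry, GAGGAA or its reverse complement was in 4 windows (Olr1, Marco, Cd68 and Stab1), beside 23.3% of all 32851 windows of that length, and TGANTCA in 2 (Olr1 and Cd68), beside 6.75%. The NF-kB motif was in 0 of 6 and 0.356% of all windows, the PPAR-RXR DR1 motif in 0 of 6 and 0.0335%, and the lysosomal CLEAR letters TCACGTGA in 0 of 6 and 0.785%. The Scarb2 window had 65.6% G and C with 19 CpG dinucleotides, the Cd68 window 49.2% with 4 and the Cd36 window 43.2% with 3, where the median window had 52.4% and 6. Msr1 was not in the table of promoters.

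Among the other genes of scavenging and lipoprotein uptake, edgeR called 0 changes past the adjusted threshold. Among 16 further scavenger receptors and related molecules, 13 had fold changes below 0 and 3 above, with a median of -0.15, and 0 had an unadjusted p under 0.05. Over all genes kept, 52.3% had fold changes below 0 and 3.19% had an unadjusted p under 0.05. Cd5l, which encodes a secreted scavenger receptor protein of macrophages, had 960 ± 130 CPM in antibody and 1495 ± 703 CPM in IgG lesions (log2 fold change -0.64 ± 0.32, SE). Cd163, the haemoglobin scavenger receptor, had -0.32 ± 0.19 and Mrc1, the mannose receptor, -0.33 ± 0.22.

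Receptors and helpers of native lipoprotein uptake were divided, with 4 of 11 below 0 and 7 above, at a median of 0.13. Vldlr, the receptor for very low density lipoprotein, had 148, 155, 173 and 178 CPM in antibody animals 1 to 4, against 123, 116, 128 and 106 CPM in IgG animals 1 to 4. All antibody lesions lay above all IgG lesions (log2 fold change 0.47 ± 0.11, edgeR unadjusted p = 0.00178, adjusted p = 0.9997). Apoe had between 13.1 and 17.7 CPM in antibody lesions, against between 17.9 and 29.5 CPM in IgG lesions. All antibody lesions lay below all IgG lesions (log2 fold change -0.72 ± 0.17, edgeR unadjusted p = 0.00217, adjusted p = 0.9997). The labels do not give the Apoe genotype of the animals. Vldlr and Apoe are named because they had the smallest p of the 11. Over all genes kept, the groups did not overlap for 1.96%, and 3.19% had an edgeR unadjusted p under 0.05. Lsr, a lipolysis-stimulated lipoprotein receptor, had -0.25 ± 0.12.

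Of 12 genes that store or export the lipid once taken up, 10 were below 0 and 2 above, with a median of -0.14 and 0 at an unadjusted p under 0.05. The fatty acid binding protein gene Fabp5 had 324 ± 54.0 CPM in antibody and 454 ± 248 CPM in IgG lesions (log2 fold change -0.49 ± 0.33). Acsl1, which activates fatty acids, and Fabp4, of adipocytes and macrophages, were the 2 above 0, at 0.38 ± 0.29 and 0.25 ± 0.25. Of 12 partners and ligands of CD36, 8 were below 0, with a median of -0.14, led by the signalling genes Vav1 (-0.39 ± 0.18), Lyn (-0.31 ± 0.16) and Tlr2 (-0.54 ± 0.30). Of 12 regulators, 9 were below 0, with a median of -0.09, among them Spi1 (-0.25 ± 0.16) and Tfec (-0.29 ± 0.24), both transcription factors of macrophages. Of 8 lysosomal genes that share the compartment of LIMP-2, 7 were below 0, with a median of -0.14. Beside these lists, 52.3% of all genes kept were below 0, with a median of -0.01. The aspartic protease gene Ctsd had 4187 ± 544 CPM in antibody and 5202 ± 1909 CPM in IgG lesions (log2 fold change -0.31 ± 0.27), and the lysosomal amino acid sensor gene Slc38a9 had -0.12 ± 0.10.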

How the data were processed

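RNA from 8 lesions was sequenced from libraries made by standard Illumina protocols, per the labels. The deposited values are raw counts of reads per gene symbol. Per the file headers, the authors counted them with featureCounts 1.4.6-p4 over exons of the UCSC mm9 annotation, with no option for strand, so reads of antisense transcripts count for the gene they overlap. STAR 3.0, CASAVA, Subread and DESeq2 are named in the submitters' processing notes. All columns with sample values entered, and the exon length is the deposited one.

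Genes were kept by edgeR's filterByExpr (minimum count 10, minimum total 15), which left 15980. Libraries were scaled by TMM and groups compared with edgeR 4.0.16 (R 4.3.3, glmQLFTest, robust, no covariate), with Benjamini-Hochberg adjustment over all genes kept and a threshold of 0.05. SEs and 95% intervals come from the F statistic of that test. CPM and RPKM use TMM-scaled library sizes, and scores and relations use log2 CPM with a prior count of 2. The fits were tested on simulated data. Alternatives used DESeq2 1.42.0, limma 3.58.1 (voom with quality weights), other scalings, no filter, Rn45s removed, covariates, a replicate block and 1 animal left out.

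The members and lists were chosen with earlier results of these data known. All 7 receptors are named, with up to 3 genes of smallest p per pathway list and the 3 most similar genes per receptor. Some genes that this rule names are not reported here. Each library is 1 animal, per the series' design text. All pairs of libraries differed by more than sampling noise (lowest chi-square per degree of freedom 26.9). Protein sequences were not used here.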

Additional observations from a re-analysis of the deposited data

Results flagged for a closer look

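The Cd68 level of antibody animal 4, at 245 CPM, stood apart from the other 3 antibody lesions, which lay between 175 and 185 CPM. Its gap to the nearest of them, as a share of the range of the group, was above Dixon's critical value of 0.829 for 4 samples. The lesion also had the highest macrophage score of its group, 7.50 against 7.05 to 7.11, and 245 CPM lies inside the IgG range of 130 to 361 CPM. It was the 1 case among 14 groups of 4 examined, and chance flags about 1 in 20 such groups.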

How the results depend on the processing

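Of 18 refits, 2 of them added after the data were seen (the brown adipocyte score as a covariate, and both antibody animal 3 and IgG animal 2 left out), 0 brought a receptor past an adjusted p of 0.05. The lowest adjusted p was 0.198, for Stab1 in limma-voom. Cd36 kept a value above 0 in all 18 (0.14 to 0.39 on the log2 scale), and Stab1 one below 0 (-0.34 to -0.15, the last without both animals). Scarb2 lay between -0.32 in limma-voom and -0.00 ± 0.11 with the macrophage score as a covariate. Msr1 reversed with the macrophage score as a covariate (0.33) and Cd68 did so too (0.24). Leaving out 1 animal at a time gave -0.35 to 0.13 for Msr1, with the reversal without IgG animal 3 (0.13), and -0.47 to 0.00 for Cd68, with 0.00308 without IgG animal 3. For Olr1 it gave -0.04 to 0.34, with the reversal without IgG animal 1 (-0.0400). The cause was not tested. The number of all genes past the adjusted threshold was 0 in edgeR, 9 in DESeq2 and 2 in limma-voom, and 0 to 1 with an animal left out (1 without antibody animal 2 and 1 without IgG animal 1). At an unadjusted p under 0.05 it was 509 (35.4% higher), 537 (53.1% higher) with total count scaling, 404 (52.0% higher) without both animals, 2772 (46.2% higher) in limma-voom, and 310 (without IgG animal 4) to 1517 (without IgG animal 1) with an animal left out. Same-numbered animals were not treated as pairs in the main fit. Correlations of their deviations from group means were 0.29, -0.34, -0.13 and -0.00, against -0.52 to 0.46 for animals of unlike number. With 4 animals per group these values cannot show whether animals were paired. With the replicate number as a block, 0 genes passed, 361 had an unadjusted p under 0.05, and the log2 fold changes were 0.29 for Cd36, -0.09 for Msr1, 0.21 for Olr1, -0.18 for Cd68, -0.28 for Stab1 and -0.14 for Scarb2. Levels per exon length moved by less than 1 SD under other scalings. Marco, fitted without the filter, had a log2 fold change of 0.11 (SE 0.999). Depth limits what can be seen for Marco.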
